A study of Mus musculus with 30 samples.

Results

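Single muscle fibres that carried a control viral vector were compared here with fibres of muscle that had received no virus, both collected at day 14. There were 8 fibres, 4 labelled AAVshLuc and 4 labelled wild type, taken from a series of 30 fibres by the titles of the samples. The muscle was the extensor digitorum longus, which is fast and moves the toes, of male CD1 mice that were 8 weeks old. The AAVshLuc muscles had been injected along their length with an adeno-associated virus, and fibres were picked for the green fluorescence of ZsGreen, which the vector encodes. The wild type fibres came from muscles of matching age with no injection, so injection, virus, reporter and the picking of green fibres all differ between the groups. The titles call the vector a hairpin against luciferase, a gene mice lack, while another label describes a vector with no cloned insert, and these sources do not settle which it was. The labels do not say how many animals gave the fibres, so fibres of a group may share an animal, and the p-values measure the spread between fibres. RNA of each fibre was amplified whole, labelled with random primers and hybridised to a 1-colour Agilent array, so that RNA of either strand is read.

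All 4 wild type arrays lie on slide 2 and all 4 AAVshLuc arrays on slide 4, and these slides were scanned in different sessions, 1 and 2. Slide and vector cannot be told apart in any difference below. The other day 14 fibres of the series lie on the same slides: those given AAVMCU, a vector that adds the mitochondrial calcium uniporter, share slide 2 with wild type, and those given AAVshMCU, a vector with a hairpin against it, share slide 4 with AAVshLuc. Their values are therefore set beside the main ones as measurements within a slide, or across the same slides.

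Adeno-associated virus carries single-stranded DNA that a fibre turns into long-lived episomes. Cells can sense viral DNA or RNA and answer with interferons, which act through Janus kinases and STAT factors and raise antiviral effectors and the class I antigen presentation machinery. Muscle fibres also have rapid programmes of immediate-early factors, metallothioneins and stretch-responsive ankyrin repeat proteins, which respond to injury, cytokines, metals and handling, fibre isolation included. A control vector group serves to separate such responses from those to the gene under study.

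Levels are log2 signals relative to each array's 75th percentile, so that 0 is a fairly bright probe. A probe was called detected where the scanner software marked it well above background, which held for 50.6% to 56.5% of probes on the AAVshLuc arrays and 52.2% to 59.5% on the wild type arrays (exact two-sided permutation p = 0.0857). The raw 75th percentile of signal overlapped between the groups (exact two-sided permutation p = 0.257). Correlations between arrays were 0.968 to 0.98 within AAVshLuc, 0.968 to 0.979 within wild type and 0.944 to 0.962 between the groups.

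The fibres carried the markers of fast muscle that their label names. Myh4, the myosin heavy chain of the fastest fibres, stood between 7.37 and 7.47 in wild type and between 7.43 and 7.56 in AAVshLuc. Myh2, the myosin of oxidative fast fibres, was not detected on any of the 8 arrays. Myh1, the myosin of intermediate fast fibres, varied most, at 3.6, 0.44, 0.25 and -0.27 in wild type fibres 1 to 4 and -1.09, 1.54, 4.77 and 4.19 in AAVshLuc fibres 1 to 4. Both groups thus held fibres with high and with low Myh1. Mcu, the pore of the mitochondrial calcium uniporter, which neither of these groups targets, stood at 2.81, 2.16, 2.55 and 2.39 in wild type and at 2.35, 2.66, 2.81 and 2.41 in AAVshLuc. These ranges overlap, with a difference of 0.08 (SE 0.38, adjusted p = 0.914).

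Of 23341 genes tested, 1296 were higher and 2447 lower in AAVshLuc fibres at an adjusted p under 0.05 (limma, Benjamini-Hochberg), together 16.0% of the genes tested. The shares were 5.55% higher and 10.5% lower, and these are the background for every count of a gene list below. The 4 fibres of one group all lay above the 4 of the other for 4808 genes, 20.6% of those tested, of which 3125 passed the test. At least 2-fold differences were found for 516 genes that rose and 831 that fell. The balance between rises and falls depends on the scaling. With each array scaled to its median in place of its 75th percentile, the median gene moves from -0.06 to 0.11 and the split becomes 2187 higher and 1200 lower, 64.6% higher against 34.6%. Among the 12658 genes with a mean level at or below 0, 524 rose and 1618 fell, while among the 10683 brighter genes 772 rose and 829 fell. With each array's share of detected probes as a covariate, 1723 genes were called, and without wild type fibre 3, 2494.

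**Figure D1:**
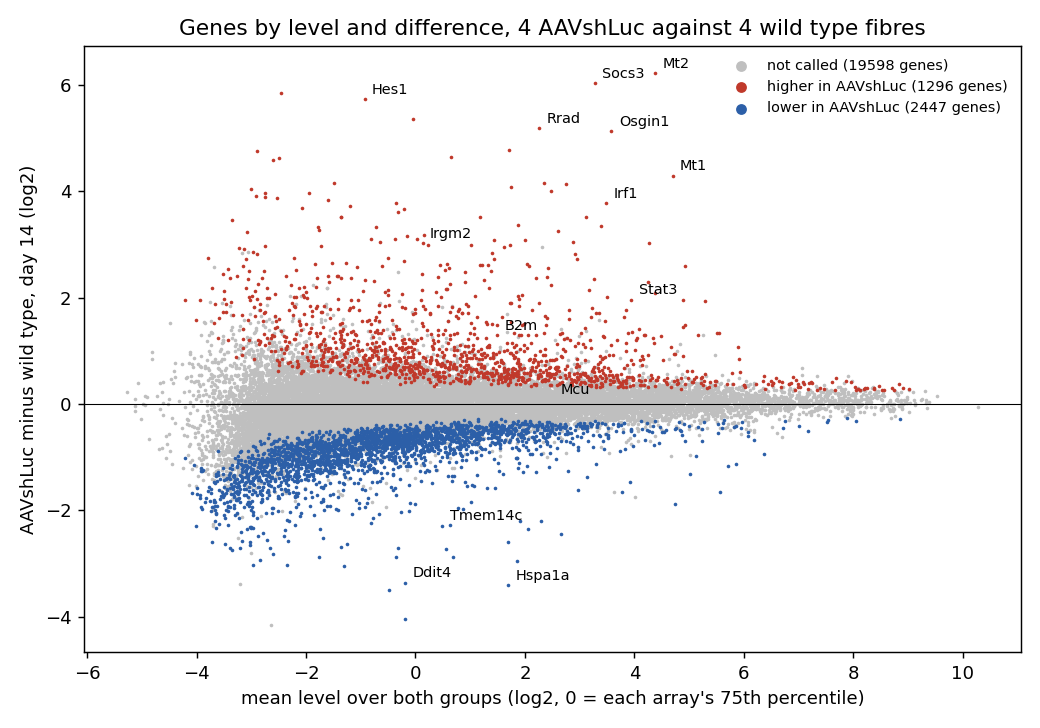
Difference between AAVshLuc and wild type fibres at day 14 (vertical axis, log2) against the mean level of the 2 groups (horizontal axis, log2 relative to each array's 75th percentile), 1 point a gene, 4 fibres a group. The 1296 higher genes include bright genes far from 0 such as Mt2 and Socs3, while 1618 of the 2447 lower genes have a mean level at or below 0.

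The largest rise of a gene detected on all 8 arrays was that of Mt2, which encodes metallothionein 2, a small protein that binds zinc and other metals. Wild type fibres 1 to 4 stood at 1.33, 2.91, 0.59 and 0.27 and AAVshLuc fibres 1 to 4 at 7.69, 7.49, 7.37 and 7.4. Every vector fibre lay above every wild type fibre, and the vector fibres were close together while wild type fibre 2 stood above the other wild type fibres. The difference was 6.22 (SE 0.66, adjusted p = 1.76e-06), a 74.4-fold rise. Its neighbour Mt1, a second metallothionein, rose 19.6-fold, from 2.55 ± 0.89 to 6.84 ± 0.15 (SD, n = 4). On the wild type slide, AAVMCU fibres stood 2.72 above wild type for Mt2 (adjusted p = 0.0672), and across the same slides AAVshMCU fibres stood 1.40 above AAVMCU fibres (adjusted p = 0.154).

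Metallothionein genes are known to be switched on by MTF1 at metal response elements. The Mt2 promoter is shown because that gene moved most. These are the 250 bases before its RefSeq start in GRCm38.p6, at chr8:94172368-94172617 on the plus strand, with matches to TGCACNC or TGCGCNC on either strand in capitals.

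Mt2: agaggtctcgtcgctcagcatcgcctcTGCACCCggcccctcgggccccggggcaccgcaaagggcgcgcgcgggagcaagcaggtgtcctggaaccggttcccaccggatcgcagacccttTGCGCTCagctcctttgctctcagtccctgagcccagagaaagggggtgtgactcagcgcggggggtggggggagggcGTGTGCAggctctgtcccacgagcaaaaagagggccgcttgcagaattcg

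Such a match stood in 21.3% of all 27025 promoters of that length, so that its presence alone marks no gene, and the window holds 3 of them. Of the 23341 genes tested, 11519 were matched by symbol to a RefSeq promoter. The motif stood in 29.9% of the promoters of genes that rose, 26.4% of those that fell and 27.8% of all those tested.

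Genes of the interferon and cytokine signal path rose. Of 17 tested receptors, kinases, STAT and IRF factors and their inhibitors, 10 rose and 0 fell, with a median difference of 1.11, against -0.06 for all genes. The kinases Jak1 and Jak2 and the receptor chain Ifngr2 rose by 1.07, 0.70 and 0.67, and the Jak2 call was lost in 9 of 21 alternatives. The transcription factors Stat3, Irf1, Irf8 and Irf9 rose more. So did the feedback inhibitors Socs1 and Socs3, which bind and shut off Janus kinases. Stat2 was not detected in wild type and rose at least 5.18-fold. Such a bound sets the bright group against the dimmest detected signal of the dim group's arrays, since the dim group's own level is not measured.

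Stat3 carries the signal of interleukin 6 and related cytokines. Its level was 3.15, 3.23, 2.64 and 2.82 in wild type fibres and 5.27, 4.88, 4.78 and 4.77 in AAVshLuc fibres. The groups were apart by far more than the spread within either, with a difference of 1.96 (SE 0.19, adjusted p = 5.91e-07), and a second Stat3 probe differed by 1.53. Socs3 stood at 1.54, 2.59, -1.13 and -1.96 in wild type and at 6.58, 6.1, 6.21 and 6.27 in AAVshLuc. Here wild type fibres 1 and 2 were well above fibres 3 and 4, yet all were below the vector fibres, and the difference was 6.03 (SE 0.77, adjusted p = 1.59e-05), or 65.3-fold. On slide 2, Socs3 was also 3.38 higher in AAVMCU than in wild type (adjusted p = 0.0452), and it was 1.24 higher in AAVshMCU than in AAVMCU across the slides (adjusted p = 0.283).

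Irf1, a factor that drives antigen presentation genes, stood at 1.46, 1.46, 1.8 and 1.68 in wild type fibres and at 5.36, 4.6, 5.44 and 6.1 in AAVshLuc fibres. The groups did not overlap and the difference was 3.78 (SE 0.41, adjusted p = 2.28e-06), with 3.44 at a second probe. Irf1 was 0.22 higher in AAVMCU than in wild type on their common slide (adjusted p = 0.895) and 1.71 higher in AAVshMCU than in AAVMCU across the slides (adjusted p = 0.00745). Within slide 4 AAVshMCU differed from AAVshLuc by -1.85 (adjusted p = 0.0122). Irf8 rose 5.66-fold and Irf9 3.51-fold.

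The promoters of Socs3 and Irf1 are printed because both genes rose together with Stat3 and hold the palindromic STAT site TTCNNNGAA, in capitals. Each is the 250 bases before the first start RefSeq lists in GRCm38.p6, at chr11:117969367-117969616 on the minus strand for Socs3 and chr11:53769764-53770013 on the plus strand for Irf1, written on the gene's strand.

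Socs3: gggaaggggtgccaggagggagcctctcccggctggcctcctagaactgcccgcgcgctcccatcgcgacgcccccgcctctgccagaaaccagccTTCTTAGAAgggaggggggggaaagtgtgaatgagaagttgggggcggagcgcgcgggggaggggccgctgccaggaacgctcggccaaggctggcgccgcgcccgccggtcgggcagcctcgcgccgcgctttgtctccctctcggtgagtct

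Irf1: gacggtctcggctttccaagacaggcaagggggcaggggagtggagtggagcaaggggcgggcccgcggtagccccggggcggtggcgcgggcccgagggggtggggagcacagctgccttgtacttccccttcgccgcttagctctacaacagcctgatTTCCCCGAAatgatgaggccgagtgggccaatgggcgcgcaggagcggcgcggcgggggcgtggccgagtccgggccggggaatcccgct

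This motif stood in 7.14% of all promoters. It stood in 6.49% of those of genes that rose and 7.25% of those of genes that fell, against 6.04% of all those tested.

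Genes that interferons switch on did not move as one group. Of 27 tested antiviral effectors 3 rose and 3 fell, with a median of 0.09. Ifit3, which binds viral RNA complexes, stood at -3.45, -3.93, -2.35 and -3.2 in wild type fibres and at -1.11, -1.7, -0.88 and -1.21 in AAVshLuc fibres. The groups did not overlap, though Ifit3 was detected on only 1 wild type array, and the difference was 2.01 (adjusted p = 3.01e-04). Its near copy Ifit3b rose by 1.31, a call lost without AAVshLuc fibre 1 (adjusted p = 0.0578), and Trim25, a ubiquitin ligase of the RNA sensing path, rose by 0.29, a call lost in 10 of 21 alternatives. Rsad2, Bst2 and Ifitm2, which hinder viral replication, release or entry, fell by 0.72, 0.64 and 3.04. The value of Ifitm2 is a fitted one, since it was detected on fewer than all 8 arrays. Under the alternatives it ran from -3.59 to -0.94. The calls of Bst2 and Ifitm2 were each lost in 10 alternatives and that of Rsad2 in 5. Isg15, a ubiquitin-like protein among the most used markers of interferon action, stood at -0.55 ± 0.29 in wild type and -0.81 ± 0.17 in AAVshLuc (SD, n = 4, adjusted p = 0.306). Of 14 interferon-inducible GTPases, which act on membranes that enclose pathogens, 3 rose and 0 fell, and the median was -0.13.

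The GTPases that rose were Irgm1, Irgm2 and Igtp. Igtp stood at -2.67, -2.65, -2.38 and -2.7 in wild type fibres and at -0.35, 0.16, -0.13 and 0.5 in AAVshLuc fibres. Irgm2 stood at -1.93, -0.27, -2.05 and -1.27 in wild type and at 2.09, 1.56, 1.17 and 1.76 in AAVshLuc. Neither gene's groups overlapped, and the rises were 6.26-fold for Igtp (adjusted p = 5.99e-04) and 8.15-fold for Irgm2 (adjusted p = 2.25e-04). Within slide 2 the AAVMCU fibres stood above wild type by 2.73 for Igtp (adjusted p = 0.00415) and 2.52 for Irgm2 (adjusted p = 0.0119). Across the slides AAVshMCU lay below AAVMCU by values of -1.10 and -0.83, neither of which passed.

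Class I antigen presentation rose. Of 22 tested genes 9 rose and 0 fell, with a median of 0.53, and the mean level over the 22 ran from 0.37 to 0.58 in wild type fibres and from 0.96 to 1.15 in AAVshLuc fibres. B2m, the light chain shared by all class I molecules, stood at 0.39, 1.21, 0.93 and 0.85 in wild type and at 2.14, 1.88, 2.23 and 2.3 in AAVshLuc. The groups were apart, with a 2.44-fold rise (adjusted p = 0.00960). The class I heavy chains H2-D1 and H2-Q7 rose 3.26-fold and 3.11-fold, with H2-D1 at 2.56, 2.56, 2.26 and 2.4 in wild type and 4.17, 4.03, 4.07 and 4.32 in AAVshLuc. H2-T23, a non-classical class I gene, rose 1.73-fold, and H2-K1 differed by 0.76 with no call (adjusted p = 0.0723). Heavy chain genes are near-identical, so their probes may read one another, and the 7 heavy chains that rose are not 7 separate findings. Psme1, a subunit of the immune proteasome activator, rose by 0.69, a call lost in 10 of 21 alternatives.

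The class I count is less steady than that of the signal path. Of the 22 genes 5 rose without AAVshLuc fibre 4, and 2 with the detected share as covariate, while the median then stood at 0.53 and 0.62. On slide 2 itself AAVMCU fibres stood above wild type by 2.21 for B2m (adjusted p = 9.5e-04) and 2.41 for H2-D1 (adjusted p = 5.27e-04), and 9 of the 22 genes rose there, in a comparison where 0.326% of all genes tested were higher and 0.0943% lower. Across the same 2 slides AAVshMCU stood below AAVMCU, at -1.97 for B2m (adjusted p = 3.74e-04) and -1.96 for H2-Q7 (adjusted p = 7.99e-04). The class I genes were thus raised in AAVMCU fibres that share the wild type slide. Of 8 tested class II genes, a mark of professional antigen-presenting cells, 0 rose, 2 fell and 6 did not pass. H2-Ob fell 1.91-fold, and H2-Eb1, not detected in AAVshLuc, was at least 1.08-fold lower, a call lost in 2 of 20 alternatives.

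The promoters of Irgm2, Igtp and B2m are shown because all 3 genes rose and each holds an interferon-stimulated response element, searched on either strand as TTTC, any 2 bases and TTTC again, and given in capitals. They lie in GRCm38.p6 on the plus strand, at chr11:58214727-58214976 for Irgm2, chr11:58199306-58199555 for Igtp and chr2:122147437-122147686 for B2m.

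Irgm2: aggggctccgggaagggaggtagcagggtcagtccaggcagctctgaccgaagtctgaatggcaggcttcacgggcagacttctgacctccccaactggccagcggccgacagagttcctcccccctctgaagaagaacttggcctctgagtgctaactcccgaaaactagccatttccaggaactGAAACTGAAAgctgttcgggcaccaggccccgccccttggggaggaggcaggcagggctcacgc

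Igtp: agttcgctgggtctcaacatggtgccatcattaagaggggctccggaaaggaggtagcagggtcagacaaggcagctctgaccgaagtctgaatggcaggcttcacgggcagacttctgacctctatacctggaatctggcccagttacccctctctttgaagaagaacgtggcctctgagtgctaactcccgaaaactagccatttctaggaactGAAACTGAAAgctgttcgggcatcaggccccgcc

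B2m: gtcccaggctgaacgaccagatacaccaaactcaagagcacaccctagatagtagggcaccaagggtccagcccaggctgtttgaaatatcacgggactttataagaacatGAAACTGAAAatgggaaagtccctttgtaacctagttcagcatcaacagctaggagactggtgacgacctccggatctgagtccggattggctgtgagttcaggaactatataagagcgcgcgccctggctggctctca

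In all 3 the match reads GAAACTGAAA, the motif read on the opposite strand. The windows of Irgm2 and Igtp also hold 1 match each to the STAT palindrome. Such a match stood in 3.05% of all promoters, in 3.51% of those of genes that rose, 3.57% of those that fell and 2.6% of all those tested.

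**Figure D2:**
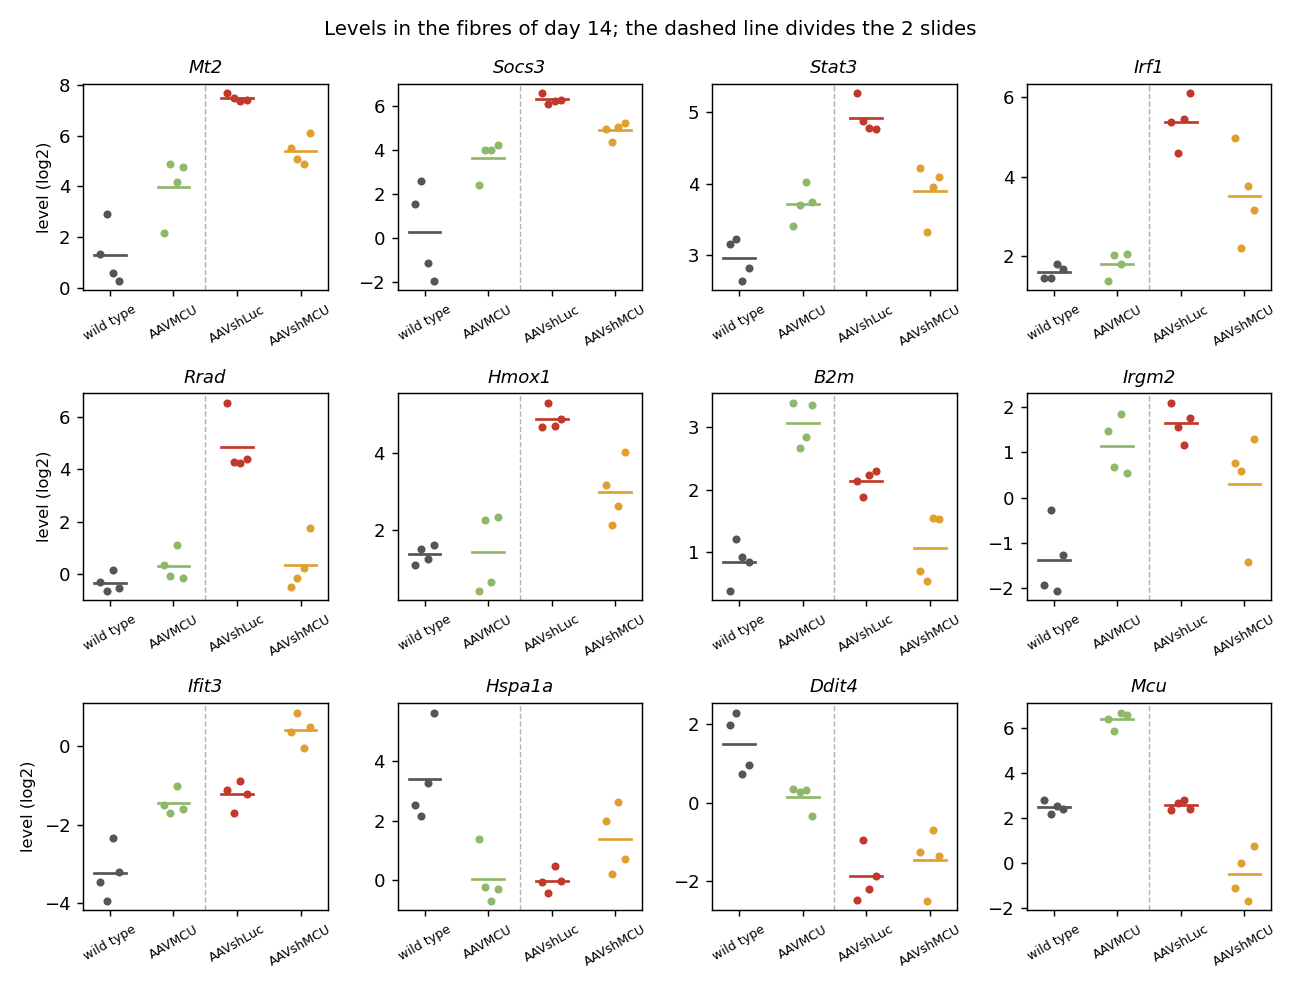
Levels of 12 genes in the 16 day 14 fibres (vertical axis, log2 relative to each array's 75th percentile), 1 point a fibre, with the group's mean as a line. Left of the dashed line are the groups on slide 2 and right of it those on slide 4. Mt2, Stat3, Irf1, Rrad and Hmox1 are highest in AAVshLuc, while B2m is highest in AAVMCU and Hspa1a in wild type.

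The immediate-early list moved most. These are transcription factors and regulators that cells switch on within minutes of a stimulus, among them the AP-1 family. Of 25 tested, 18 rose and 0 fell, with a median of 1.67. The mean level over the list ran from 0.58 to 1.35 in the wild type fibres and from 2.64 to 2.86 in the AAVshLuc fibres, with no overlap. AAVMCU fibres, on the wild type slide, ran from 0.11 to 1.35, and AAVshMCU fibres, on the AAVshLuc slide, from 1.98 to 2.24. The list's median was -0.02 for AAVMCU minus wild type within slide 2, -0.29 for AAVshMCU minus AAVshLuc within slide 4, and 1.16 for AAVshMCU minus AAVMCU across the slides. AAVshMCU and AAVshLuc did not overlap either, on their common slide. AAVMCU adds Mcu while AAVshMCU carries a hairpin against it, so slide and vector cannot be told apart in the comparison across the slides.

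Junb, an AP-1 subunit, stood at 1.48, 2.51, 1.36 and 1.54 in wild type fibres and at 5.34, 5.26, 4.85 and 4.83 in AAVshLuc fibres. The groups were apart by 3.35 (SE 0.48, adjusted p = 7.73e-05), and wild type fibre 2 was the highest of its group. Egr1, a zinc finger factor, stood at 3.76, 4.53, 3.03 and 3.18 in wild type and at 6.71, 5.86, 6.06 and 6.24 in AAVshLuc, a rise of 2.59 (adjusted p = 1.95e-04). Zfp36, which speeds the decay of cytokine messages, rose 17.0-fold. Maff and Myc rose by 4.65 and 3.79 at fitted values, though each was detected on fewer than all 8 arrays. Under the alternatives these differences ran from 3.19 to 4.92 and from 2.05 to 4.45. Fosl1, not detected in wild type, rose at least 9.22-fold. Atf3, a stress-responsive factor, was 3.36, 3.38, 4.57 and 5.97 in wild type and 6.2, 6.14, 6.32 and 6.35 in AAVshLuc. Wild type fibre 4 came near the vector fibres, and the rise of 1.93 (adjusted p = 0.0415) was lost in 12 of 21 alternatives. The count of 18 fell to 11 without AAVshLuc fibre 1 and to 8 with the detected share as covariate, where the median was 1.65 and 1.63.

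Other regulators rose with them. Cebpd, a factor of the acute phase response, stood at -0.17, 2.31, -1.34 and 1.07 in wild type and at 5.01, 4.42, 4.17 and 4.28 in AAVshLuc. Klf10, which transforming growth factor beta induces, rose 11.5-fold. Hes1, the main target of Notch signalling, was not detected in any wild type fibre and stood at 1.8, 1.97, 1.73 and 2.25 in AAVshLuc, at least 34.9-fold higher, and Id2, an inhibitor of muscle transcription factors, was at least 14.5-fold higher. Bhlhe40, a repressor tied to the clock and to hypoxia, stood at 1.67, 2.22, 0.96 and 1.17 in wild type and 4.35, 4.23, 4.45 and 4.3 in AAVshLuc. The groups were apart by 2.83 (SE 0.25, adjusted p = 2.00e-07), more than the spread within either. Map3k1, a kinase upstream of JNK, rose 5.47-fold, and Tnfaip2, which tumour necrosis factor induces, 3.08-fold. Pip5k1a, a lipid kinase, rose 8.20-fold at its brightest probe, while its other probes differed by -0.33 and -0.12, so the gene's change is uncertain.

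Genes of muscle stress rose in part. Of 18 tested 5 rose and 1 fell with a median of 0.69. Under the alternatives 4 to 7 rose and the median ran from 0.29 to 1.09. Among the 5 that rose, the call of Tnfrsf12a was lost in 15 of 21 alternatives. Rrad, a small GTPase that restrains calcium channels, stood at -0.32, -0.65, 0.16 and -0.53 in wild type and at 6.54, 4.26, 4.22 and 4.38 in AAVshLuc. AAVshLuc fibre 1 stood well above the others, and the rise was 36.4-fold (adjusted p = 5.02e-05). The ankyrin repeat proteins Ankrd1 and Ankrd2, which sit at the sarcomere and enter the nucleus on stretch, rose 17.5-fold and 17.7-fold. Ankrd1 stood at -0.55, 0.31, 0.71 and 2.26 in wild type and at 6.12, 4.31, 4.52 and 4.3 in AAVshLuc, with fibre 1 again highest. Gem, another calcium channel regulator, rose by 3.73 at one probe and differed by -0.55 at another. Gdf15, a circulating stress factor, fell by 0.75. The muscle stress list had a median of -0.12 for AAVshMCU minus AAVMCU across the slides and of 0.36 for AAVMCU minus wild type within slide 2, and Rrad differed by 0.04 between AAVshMCU and AAVMCU (adjusted p = 0.979). Within slide 4 Rrad differed by -4.52 between AAVshMCU and AAVshLuc (adjusted p = 4.24e-04).

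Of 25 tested genes of the Nrf2 path and antioxidant defence 6 rose and 0 fell, with a median of 0.24. Hmox1, the enzyme that breaks down heme, stood at 1.1, 1.51, 1.25 and 1.62 in wild type and at 4.66, 5.29, 4.7 and 4.86 in AAVshLuc. The groups were apart by 3.51 (SE 0.49, adjusted p = 4.76e-05). Txnrd1, the cytosolic thioredoxin reductase, rose 2.78-fold, Gclc, which makes the first step of glutathione synthesis, 2.50-fold, and Nfe2l2, the factor that drives these genes, 1.81-fold, a call lost in 8 of 21 alternatives. Mt1 and Mt2, described above, are the other members that rose. Osgin1, an oxidative stress gene outside the list, stood at 1.11, 1.5, 0.58 and 0.87 in wild type and at 6.7, 6.13, 5.77 and 5.99 in AAVshLuc, a 35.0-fold rise. Osgin1 was also 2.89 higher in AAVshMCU than in AAVMCU across the slides (adjusted p = 0.0141) and 1.05 higher in AAVMCU than in wild type within slide 2 (adjusted p = 0.647).

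Of 25 genes of the p53 and DNA damage response 6 rose and 3 fell, with a median of 0.21. Gadd45a, Gadd45b and Gadd45g, stress sensors that slow the cell cycle, rose by 1.90, 1.96 and 1.34. Btg2, which restrains growth, rose 8.24-fold, and Ccng1, a direct p53 target, 1.59-fold. Cdkn1a, the cell cycle inhibitor p21, rose by 1.84 at its brightest probe, while its other probes ran from -0.44 to 0.74. Ddit4, a p53 and glucocorticoid target that inhibits mTOR, fell most. It stood at 1.98, 2.29, 0.73 and 0.95 in wild type and at -2.47, -0.96, -2.19 and -1.86 in AAVshLuc, a 10.3-fold fall (adjusted p = 9.68e-04).

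Genes of fuel uptake and turnover that passed are given here singly. Of 28 glycolytic genes 3 rose and 0 fell, with a median of 0.17. That is 10.7%, against 16.0% of all genes tested. The share was 7.69% for the TCA cycle and pyruvate dehydrogenase and 7.41% for fatty acid uptake and oxidation. Hk2, the hexokinase of muscle, stood at 3.08, 2.72, 2.86 and 3.31 in wild type and 5.01, 4.34, 4.7 and 4.45 in AAVshLuc, a rise of 1.63 (adjusted p = 2.34e-04). Slc2a1, the basal glucose transporter, rose by 3.17, and Pfkfb3, which makes an activator of glycolysis, 2.56-fold, a call lost in 8 of 21 alternatives. Pdk1, a kinase that shuts pyruvate dehydrogenase, rose 2.06-fold, and Ppard, a receptor that drives fat oxidation, 2.83-fold. Of 20 atrophy genes 3 rose and 1 fell. Fbxo30, a ubiquitin ligase also called MUSA1, rose 5.73-fold, and Trim63, the ligase MuRF1, 2.09-fold, a call lost in 5 of 21 alternatives. Klf15, a glucocorticoid target, fell by 0.70. Sat1, which breaks down polyamines, rose 9.58-fold and Sirt1, an NAD-dependent deacetylase, 3.57-fold.

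Few genes of the fibre's own machinery passed, against 16.0% of all genes. None of 31 proteasome genes and none of 42 genes of respiratory complexes II to V passed, and 1 of 36 complex I genes did, Ndufs5, which rose 1.43-fold. Mrps24 was the 1 of 73 mitochondrial ribosomal proteins that passed, with a rise of 0.85, and 2 of 60 cytosolic ribosomal proteins rose. The counts were 1 of 21 for the fast sarcomere, with Ttn, whose other probes ran from -0.68 to 1.01, and 1 of 35 for excitation-contraction coupling, with Camk2g, a call lost in 13 of 21 alternatives. The slow sarcomere list was the exception, with Tpm3 higher and Myl3 lower of 11 tested, or 18.2%. The medians of these lists ran from 0.01 to 0.14. A p that misses the threshold does not show that a level stayed the same.

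Genes of AAV uptake and of RNA interference showed no common shift. Of 23 host factors that AAV uses 3 rose and 2 fell, with a median of 0.01. Vps54, a tethering protein of the Golgi, rose by 1.09 and Tm9sf2, a Golgi membrane protein, by 0.52, a call lost in 10 of 21 alternatives, and Npc1, the cholesterol transporter of late endosomes, fell by 1.29. Of 16 genes of RNA interference 1 rose and 1 fell. Mov10, a helicase of the silencing complex, rose by 0.65, a call lost in 5 of 21 alternatives. Adar, which edits double-stranded RNA, was not detected in AAVshLuc and was at least 1.62-fold lower, a call lost in 10 of 20 alternatives. Among 13 nucleic acid sensors and adaptors Myd88, the adaptor of Toll-like receptors, was not detected in wild type and rose at least 1.68-fold. Cgas, the sensor of cytosolic DNA, fell by 0.28, a call lost in 13 of 21 alternatives.

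**Figure D3:**
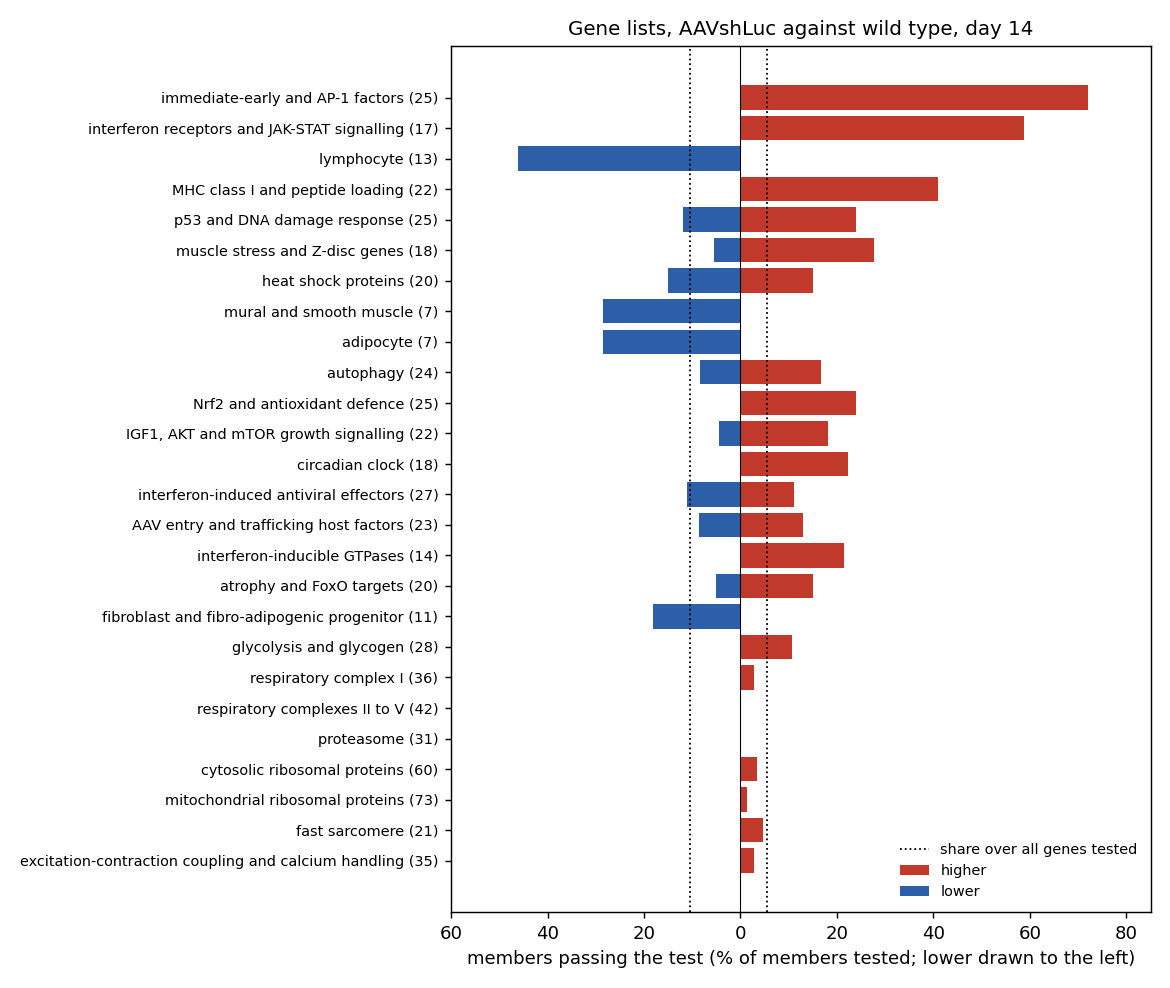
Share of the tested members of 26 gene lists that passed the test (horizontal axis, %), with members higher in AAVshLuc to the right and lower ones to the left; the number of members tested stands beside each name and the dotted lines mark the shares over all genes, 5.55% higher and 10.5% lower. The immediate-early, JAK-STAT and class I lists reach furthest to the right and the lymphocyte list furthest to the left. The lists of respiration, ribosomes, fast sarcomere and excitation-contraction coupling lie at or below the dotted lines, and the slow sarcomere list is not drawn.

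Of 20 heat shock genes 3 fell and 3 rose, with a median of -0.12. Hspa1a, the inducible HSP70, stood at 2.53, 2.16, 3.28 and 5.63 in wild type and at -0.06, -0.43, 0.48 and -0.03 in AAVshLuc. The wild type fibres, fibre 4 above all, were higher than every vector fibre, and the fall was 10.6-fold (adjusted p = 0.00377). Hsp90aa1, the inducible HSP90, stood at 2.85, 2.84, 3.47 and 4.51 in wild type and 2.49, 1.99, 2.11 and 2.06 in AAVshLuc, a fall of 1.26 that was lost in 8 of 21 alternatives. Dnaja1, their partner, fell by 0.91 with overlap of the groups, lost in 13 of 21, and its second probe differed by 0.35. The genes that rose were Hspb8, a small heat shock protein of the Z-disc, by 1.49, Dnajb5 by 0.63 and Hspa5, the chaperone of the endoplasmic reticulum, by 0.41. The Hspb8 call was lost in 2 of 21 alternatives, that of Dnajb5 in 1 and that of Hspa5 in 7. On slide 2 Hspa1a was lower in AAVMCU than in wild type by a value of -3.35 (adjusted p = 0.0452), so the wild type fibres also stood apart on their own slide.

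Other genes that fell are given here singly and form no tested group. Slc25a25, a mitochondrial carrier of ATP and phosphate that calcium regulates, stood at 3.74, 3.79, 3.09 and 2.95 in wild type and at 0.14, 1.37, 1.7 and 1.59 in AAVshLuc. All vector fibres were lower, and the fall was 4.57-fold (adjusted p = 2.82e-06). Tmem14c, which imports heme precursors into mitochondria, stood at 1.41, 1.82, 1.64 and 1.66 in wild type and at -0.87, 0, -0.97 and -0.78 in AAVshLuc, a 4.88-fold fall (adjusted p = 1.15e-07). Rgcc, a regulator of the cell cycle, fell 7.31-fold and Ostn, a peptide that muscle secretes, fell by 2.73 with overlapping groups, a call lost in 5 of 21 alternatives. Optn, an autophagy receptor, fell 2.05-fold, Flcn, which couples amino acids to mTOR, 1.75-fold, Flvcr2, a membrane transporter, 2.09-fold, and Usp2, a deubiquitinase that follows the clock, 1.75-fold. Both Tmem14c and Slc25a25 were also lower in AAVshMCU than in AAVMCU across the slides, with adjusted p = 2.21e-07 and 1.13e-05, the former by a value of -2.13. Within slide 2, AAVMCU minus wild type gave 0.01 and -0.46 for these genes, with neither passing. Of 18 clock genes 4 rose and 0 fell, Nr1d1 by 1.34, Tef by 0.54, Bhlhe41 by 0.99 and Bhlhe40 as above.

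Markers of other cell types were compared too. Fewer cells of a type and less RNA per cell cannot be told apart in such samples. For the fibroblast list, 11 of 14 markers were detected on at least 3 wild type arrays and 8 of 14 on at least 3 AAVshLuc arrays, and the summed linear level ran from 5.41 to 20 in wild type and from 4.8 to 5.25 in AAVshLuc. Dcn, a matrix proteoglycan of fibroblasts, stood at -1.14, -4.79, 1.12 and 2.57 in wild type and between -5.14 and -4.34 in AAVshLuc, where it was not detected. So 3 of the 4 wild type fibres carried it and fibre 2 did not, and the difference of -4.15 did not pass (adjusted p = 0.0789). Pi16, another fibroblast gene, fell by 0.85. The endothelial list was detected on at least 3 arrays for 8 of 14 markers in wild type and 5 of 14 in AAVshLuc, with sums of 20.5 to 22.5 and 19.6 to 21.6. Those sums come mostly from Kdr and Vwf. Of the 14 markers, 0 in wild type and 7 in AAVshLuc were detected on no array of the group.

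No tested lymphocyte or myeloid marker rose. For the lymphocyte list 12 of 21 markers were detected on at least 3 wild type arrays and 9 of 21 on at least 3 AAVshLuc arrays, with summed levels of 12.6 to 14.7 and 10.7 to 12.7. Of 13 tested, 0 rose and 6 fell, with a median of -0.43, a count of 2 among probes detected on all 8 arrays. Cd4, the helper T cell coreceptor, stood at 1.81, 1.78, 1.97 and 1.69 in wild type and at 0.88, 1.2, 1.04 and 1.18 in AAVshLuc, and Il2rb, a chain of the interleukin 2 receptor, fell by 0.82. For the myeloid list 10 of 21 markers were detected on at least 3 wild type arrays and 7 of 21 in AAVshLuc, with sums of 313 to 325 and 278 to 309. Those sums come mostly from Itgam, so they say little of the other markers. Itgam stood between 8.16 and 8.23 in wild type and between 7.94 and 8.14 in AAVshLuc. Of 11 tested myeloid markers, Fcer1g fell, a call lost in 5 of 20 alternatives. Cd68, a marker of macrophages, stood at 2.95 in AAVshLuc fibre 1 and between -0.13 and 0.39 in the other vector fibres, with wild type between -1.18 and -0.56 (adjusted p = 0.0736). Of 7 tested adipocyte markers 0 rose and 2 fell, 28.6% against 16.0% of all genes tested, with a median of -0.42. The 2 were the hormones Lep and Adipoq, which were not detected in AAVshLuc and were at least 1.5-fold and 1.73-fold lower. The Adipoq call was lost in 4 of 20 alternatives. Plin1, of the same list, went the other way without a call, with a group median of -2.1 in wild type and -1.67 in AAVshLuc. The part of these other cells in the differences above was not tested.

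The same comparison at day 7, with 4 fibres a group on slides 3 and 1, shares no fibre with that of day 14. At day 7, 4126 genes passed, 17.7% of those tested, 1396 higher (5.98%) and 2730 lower (11.7%). Genes that passed on both days with the same sign numbered 1390, of which 403 were higher and 987 lower, or 37.1% of the day 14 genes and 33.7% of the day 7 genes. A further 60 passed with opposite signs. Each day's wild type and vector fibres were scanned in the same 2 sessions, 1 and 2, so this overlap does not separate session from vector. The immediate-early list had 11 members higher and 0 lower at day 7 with a median of 1.12, and the class I list 1 higher and 0 lower with 0.32.

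The difference itself changed between the days for 531 genes, 2.27% of those tested, 264 upward and 267 downward. This count is the least steady one. It was 323 without day 14 wild type fibre 4, 322 and 332 without day 7 wild type fibres 1 and 4, 999 with normexp background correction and 1137 with array weights. The Socs3 difference, detected in every fibre of the 4 groups, was 1.89 at day 7 (adjusted p = 0.0881) and 6.03 at day 14 (adjusted p of the change 0.0416). Its wild type fibres stood between 2.66 and 3.38 at day 7 and between -1.96 and 2.59 at day 14. AAVshLuc fibres stood at 5.58, 5.72, 2.8 and 5.8 at day 7 and between 6.1 and 6.58 at day 14. The wider difference thus holds a lower level in wild type as well as a higher one in AAVshLuc. Tmem14c, at -0.05 at day 7, and Slc25a25, at 0.42, changed by -2.23 and -2.61. For other genes a group lay below background and the size of the change is not measured. Gdpd3, a lipid phosphodiesterase, and Ifit3 were detected in 4 wild type and 0 AAVshLuc fibres at day 7. At day 14 they were detected in all 4 AAVshLuc fibres and in 0 and 1 wild type fibres. Hes1 was detected in all fibres of day 7 and in 0 wild type fibres of day 14. Xdh, the enzyme that makes uric acid, was detected in 4 AAVshLuc and 0 wild type fibres at day 7, and differed by 0.22 at day 14 (adjusted p = 0.783). Mt2, at 4.05 on day 7, and Rrad, at 4.86, had no called change.

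**Figure D4:**
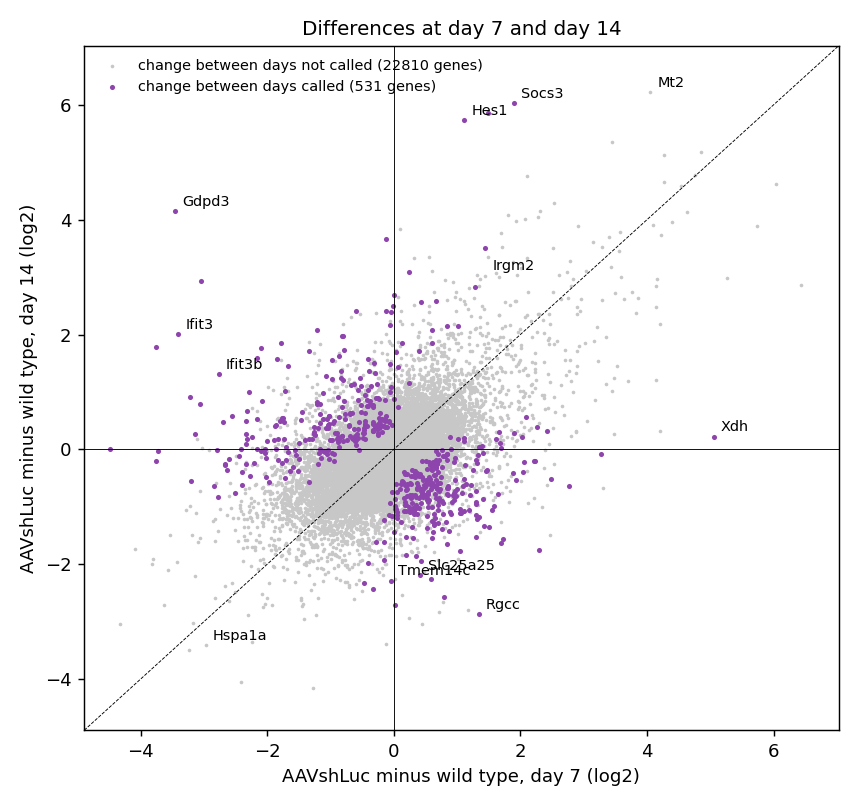
Difference between AAVshLuc and wild type at day 14 (vertical axis, log2) against that at day 7 (horizontal axis, log2), 1 point a gene, 4 fibres a group and day; the dashed line marks equal differences. The 531 genes whose difference changed are drawn in purple. Socs3 lies above the line at positive values of both days. Gdpd3, Ifit3, Hes1 and Xdh are drawn at fitted values, though 1 or more of their groups were not detected.

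Across the same 2 slides at day 14, AAVshMCU was compared with AAVMCU, which uses none of the 8 fibres. There 3389 genes passed, 14.5% of those tested, 1379 higher (5.91%) and 2010 lower (8.61%). Of these, 1077 had passed with the same sign for AAVshLuc against wild type, 353 higher and 724 lower, or 28.8% of the latter's genes and 31.8% of the former's, and 49 passed with opposite signs. Without AAVMCU fibre 3 the shared count was 711, with the myosins Myh4 and Myh1 as covariates 581, and with the share of detected probes 637. Within slides fewer genes passed. For AAVMCU against wild type on slide 2 the count was 98, 0.420% of those tested, and for AAVshMCU against AAVshLuc on slide 4 it was 821, 3.52%. In the first of these the groups also differ in having received a virus. Both comparisons share a group with the main one, so their values are given side by side only.

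The JAK-STAT list had a median of 1.11 for AAVshLuc minus wild type, 0.46 for AAVshMCU minus AAVMCU, 0.22 for AAVMCU minus wild type and -0.38 for AAVshMCU minus AAVshLuc. For the antioxidant list the medians were 0.24, 0.19, 0.02 and -0.16 in that order. The class I list gave 0.53, -0.27, 0.35 and -0.31. The fibroblast list gave -0.85, 0.16, -0.66 and 0.09. Of its 11 tested members 2 fell in AAVshLuc, 18.2% against 16.0% of all genes tested. The mean level over the list was -0.95 in wild type and -2.26, -2.19 and -2.14 in AAVshLuc, AAVMCU and AAVshMCU. Wild type fibres ran from -2.14 to -0.03, and so overlapped the AAVshLuc fibres, which ran from -2.42 to -2.08.

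**Figure D5:**
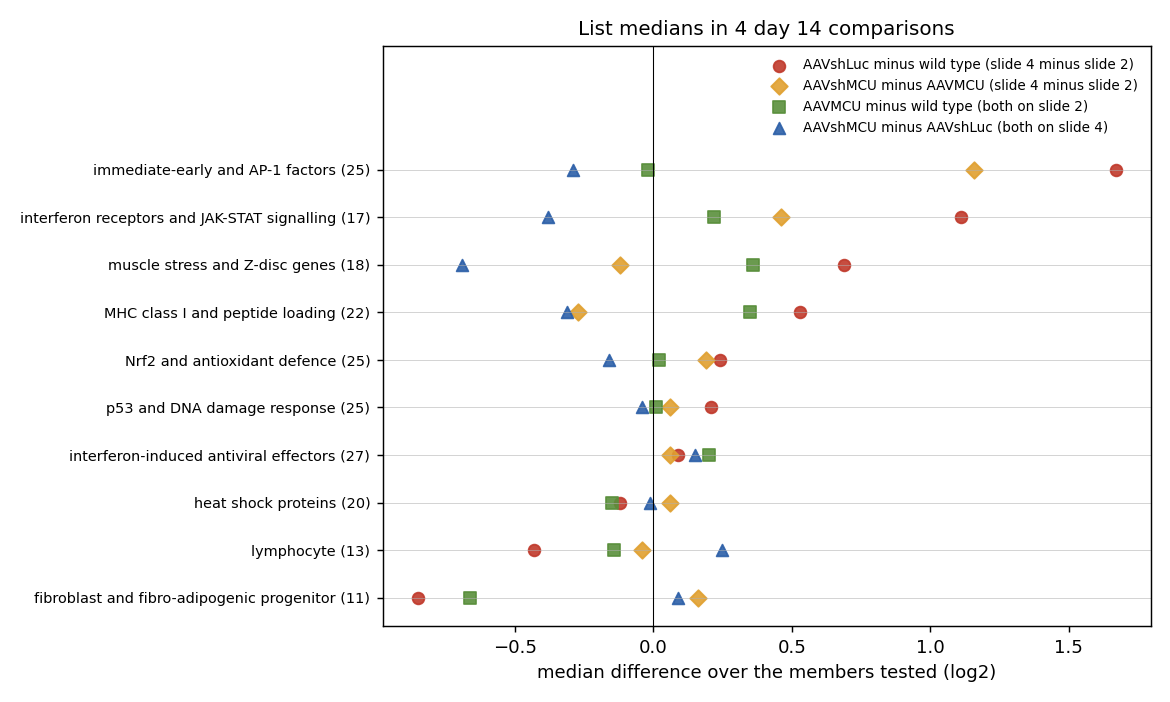
Median log2 difference over the tested members of 10 gene lists (horizontal axis) in 4 day 14 comparisons, 2 across the slides (circles and diamonds) and 2 within a slide (squares and triangles), 4 fibres a group. For immediate-early genes both comparisons across slides lie above 1 and both within a slide below 0, while for class I genes the 2 comparisons against wild type lie above 0 and the other 2 below.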

How the data were processed

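Each fibre gave 1 single-colour Agilent array. The deposited intensity values were background-subtracted and detrended within the array by Agilent Feature Extraction 10.7.3.1, per the file headers, which also name mm9 for probe positions. How the submitters' own table of intensity values was scaled is not given in the sources used here, and it served as an alternative. The other deposited values used, which have no scale of intensity, are the software's spot flags.

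Intensities of non-control probes were put on a log2 scale relative to each array's 75th percentile. A probe was kept where some group had it detected on 3 or more arrays, which left 33163 probes, and each gene was read at its brightest kept probe. limma 3.58.1 in R 4.3.3 fitted 1 mean for each of 8 groups to all 30 arrays, with 22 residual degrees of freedom. Tests were two-sided, with Benjamini-Hochberg adjustment over 23341 genes and a threshold of 0.05. The fit was tested on simulated data. Array number limits the precision.

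The comparison and the gene lists were chosen with earlier results of these data known. Genes were named by rule: Mcu, the largest differences, the smallest p-values, the largest bounds, up to 4 leading members of each list and the clearest changes between days. Other list members that passed are named too, chosen after their values were seen. Alternatives changed the scaling, background correction, probe choice, filter, weights, covariates, block and fibres used. Promoters are RefSeq's and were drawn with Python 3.11.15. Results that need items withheld from this text are not reported here.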

Additional observations from a re-analysis of the deposited data

Results flagged for a closer look

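Among 142 genes, each was checked in the wild type and the AAVshLuc group of day 14. A fibre stood far from its group in 12 of the 284 groups checked, where about 1 in 20 would be flagged by chance if the genes were independent. The genes were mostly named for their differences and may move together, so that rate is only a rough guide. Most of the flags fell on AAVshLuc fibre 1. AAVshLuc fibre 1 was the high one for Rrad at 6.54, Ankrd1 at 6.12, Myc at 2.82, Gadd45a at 3.77, Hspb8 at 6.72, Cd68 at 2.95 and Klf4 at 0.99, and the low one for Trim25 at 8.24. In wild type, fibre 2 was high for Junb at 2.51 and low for Gdpd3 at -4.78 and Klf4 at -4.23, and fibre 3 was high for Igtp at -2.38.

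The difference between AAVshLuc and wild type changed from day 7 to day 14 by the test of that change for 20 of the genes. The sizes are fitted values and no measured sizes for Gdpd3, Ifit3, Ifit3b, Hes1, Id2, Xdh and Tmem243, where at least 1 of the 4 groups was detected on 0 arrays. It moved upward for Gdpd3 by 7.61, Ifit3 by 5.42, Hes1 by 4.63, Id2 by 4.36, Socs3 by 4.13, Ifit3b by 4.08, Ppp1r1c by 2.07, Pdk1 by 1.61, Bhlhe40 by 1.54 and Tef by 0.77. The change was -4.83 for Xdh, -4.21 for Rgcc, -2.74 for Fbxo27, -2.61 for Slc25a25 and -2.23 for Tmem14c. It was -2.09 for Tmem243, -1.91 for Npc1, -1.81 for Abcc9, -1.77 for Flcn and -1.05 for Optn.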

How the results depend on the processing

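The count of genes called at day 14 stayed between 2831 and 4643 under the alternatives that kept all fibres, except for 1723 with the detected share as covariate. Leaving out 1 fibre gave 2494 to 3293. Genes called the same way on both days numbered 691 with that covariate and 943 to 1328 with a fibre left out. Genes called the same way in AAVshMCU against AAVMCU numbered 637 with it, 581 with Myh4 and Myh1 as covariates and 711 to 1064 with a fibre left out. The count of changes between days was 999 with normexp, 1137 with array weights and 322 to 575 with a fibre left out. The difference of Mcu, never called, turned to -0.01 with the myosin covariates, and ran from -0.02 to 0.19 with a fibre left out (0 without AAVshLuc fibre 3), and that of Xdh ran from -0.07 to 0.56, with -0.07 and -0.06 without wild type fibres 2 and 4. The cause was not tested. The genes themselves were less steady than their count. Of the 3743, 2496 were called with the same sign under median scaling and 2401 with only the groups compared. Without wild type fibre 3 it was 2400, and with the detected share as covariate 1631, the lowest. The highest was 3651, with array weights. With the replicate number as a block 3690 genes were called, 3529 of them among the 3743. Deviations of same-numbered fibres correlated at -0.203, -0.0157, 0.0612 and -0.0998, so the numbers do not pair the fibres.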
